A study of Mus musculus with 6 samples.

Results

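Neural stem cell and neurogenesis genes were followed in the mouse hippocampus after cerebral ischemia/reperfusion (I/R). They were the 8 genes Sox2, Hes5, Eomes, Neurod1, Dcx, Sox4, Sox11 and Igfbpl1, taken by name from the 41386 genes of the expression table, and each name was on 1 row. The hippocampus was profiled by RNA-seq in 3 I/R libraries and 3 sham libraries from 56-day-old wild-type mice, C57BL/6 by the labels and C57BL/6J by the methods. In the I/R group a filament closed the middle cerebral artery during 1.5 h (MCAO), followed by 24 h of reperfusion. The sham mice had the same operation without the occlusion. Per the methods, the mice were male, the artery was on the left, the hippocampus of that side was taken, and each library pooled 3 hippocampi. The spread between libraries is therefore a spread between pools, and the tissue is a mixture of cell types. In such bulk samples fewer cells of a type and less RNA per cell cannot be told apart.

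In the adult hippocampus new granule neurons arise in the subgranular zone of the dentate gyrus. Radial glia-like stem cells carry Sox2 and answer to Notch signals, which keep them quiescent through repressors such as Hes5. Their daughters pass through an intermediate progenitor stage marked by Eomes, also known as Tbr2, and then become neuroblasts. Neurod1 drives the commitment to a granule neuron, Sox4 and Sox11 switch on neuronal genes, and Dcx, a microtubule-binding protein, marks the migrating young cell. Igfbpl1, a protein related to the insulin-like growth factor binding proteins, is found in young neurons. Several of these genes are not limited to the lineage: Sox2 is also present in astrocytes, and Eomes also in natural killer and T cells.

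After I/R, Sox11 and Sox4 rose, Neurod1 and Hes5 fell, and Sox2, Dcx, Igfbpl1 and Eomes did not pass the test. Sox11 rose 1.80-fold, from 18.2 ± 2.08 to 32.8 ± 1.79 CPM (mean ± SD, n = 3 libraries each), and Sox4 rose 1.58-fold, from 17.5 ± 1.65 to 27.6 ± 7.04 CPM. Neurod1 fell 1.48-fold, from 24.9 ± 2.11 to 16.8 ± 1.89 CPM, and Hes5 fell 1.90-fold, from 4.95 ± 1.30 to 2.60 ± 0.388 CPM. CPM is the usual count unit relative to library size, and the library size was scaled with TMM factors, which centre the bulk of the genes. A gene was called a differentially expressed gene (DEG) at an adjusted p under 0.05 by edgeR's quasi-likelihood test over all 18569 genes tested, with a fold change over 1.2 in either direction. All 8 genes passed the filter on low counts, and 4 of 8 were DEGs, beside 41.8% of all genes tested. Without sham replicate 2 there were 2, Sox11 and Neurod1. The 2 that rose stand beside 21.8% of all genes called higher, and the 2 that fell beside 19.9% called lower. The share of DEGs among these genes was thus near that of the transcriptome, and their median log2 fold change of 0.27 stands beside 0.03 over all genes tested. Counts of called genes in the lists below are to be read beside the same shares of all genes.

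The libraries held 37493042 to 44788547 counts, so that 3 counts equal 0.0659 to 0.0872 CPM. TMM factors were 1.06 to 1.15 after I/R and 0.908 to 0.920 in sham, and with library size only the median log2 fold change of all genes was 0.28, so each direction here is relative to the scaling. No other brain region was profiled, so detection of markers cannot tell the hippocampus from its neighbours. All 10 genes of a hippocampal neuron list were detected and tested. Their summed level was 5204 to 5460 CPM in sham and 1312, 2693 and 2927 CPM in I/R replicates 1, 2 and 3, with 8 of 10 lower (5 without sham replicate 1 or 2). I/R replicate 1 stood apart from the other 2 I/R libraries in several lists. The choroid plexus list, genes of the tissue that makes cerebrospinal fluid, summed to 142 and 173 CPM in I/R replicate 3 and sham replicate 1 and to 2287 to 6291 CPM in the other 4 libraries. Several results that moved without such a library are given with that value, but not all of them are.

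The stretches before the start sites of the 4 genes that changed are printed so that the binding motifs searched for can be seen. They are the 250 bases upstream of the RefSeq start on GRCm38.p6, in the direction of transcription, and capitals mark the core motif of RBPJ, the DNA-binding partner of Notch (TTCCCAC, or GTGGGAA on the other strand). For Sox11, and for Sox2 and Eomes, the bases just after that start were not found in a reference transcript of the gene. The start, and so the window, is less certain for them. The window of Hes5 is chr4:154960673-154960922 on the plus strand. Those of Neurod1, chr2:79456637-79456886, Sox4, chr13:28953700-28953949, and Sox11, chr12:27342719-27342968, are on the minus strand.
Hes5: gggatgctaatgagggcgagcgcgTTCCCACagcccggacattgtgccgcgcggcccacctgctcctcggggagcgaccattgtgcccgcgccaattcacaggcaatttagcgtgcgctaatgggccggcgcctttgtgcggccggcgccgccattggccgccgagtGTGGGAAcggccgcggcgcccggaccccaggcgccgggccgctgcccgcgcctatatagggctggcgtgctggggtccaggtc
Neurod1: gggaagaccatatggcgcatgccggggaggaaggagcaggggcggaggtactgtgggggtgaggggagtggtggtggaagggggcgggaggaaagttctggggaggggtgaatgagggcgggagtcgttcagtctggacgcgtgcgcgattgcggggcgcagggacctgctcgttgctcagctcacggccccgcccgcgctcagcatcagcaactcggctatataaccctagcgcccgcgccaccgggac
Sox4: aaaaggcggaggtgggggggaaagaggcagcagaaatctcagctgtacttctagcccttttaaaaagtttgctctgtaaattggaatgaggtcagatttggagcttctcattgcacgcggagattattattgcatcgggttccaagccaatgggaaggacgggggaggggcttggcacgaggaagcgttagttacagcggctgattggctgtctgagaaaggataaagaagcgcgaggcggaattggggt
Sox11: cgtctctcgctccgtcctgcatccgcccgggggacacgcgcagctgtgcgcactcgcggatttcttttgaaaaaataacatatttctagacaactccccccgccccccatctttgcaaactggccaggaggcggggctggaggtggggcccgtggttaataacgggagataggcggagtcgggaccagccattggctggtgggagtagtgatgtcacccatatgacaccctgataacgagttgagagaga

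Hes5 had 2 RBPJ motifs, beginning 226 and 83 bases before its start, in opposite directions. Of 32851 upstream windows of mouse genes, 5.42% held the motif and 53, or 0.161%, held it at least 2 times. The motif was in 0 windows of the other 6 genes that had one. From the Notch pathway list only Hes1, Hey1, Hey2, Heyl, Hes6 and Nrarp were looked up. Hey2 had 1 match, Hes6 and Nrarp had 0, and Hes1, Hey1 and Heyl had no window and were not searched. The E-box bound by NeuroD proteins (CAGATG or CATCTG) was in 14.4% of all windows and in 0 of these genes, and the AP-1 motif (TGANTCA) was in 6.75% and in 0 of these genes. The SOX motif (ACAAAG or CTTTGT) was in 16.5% of all windows and was found once each in Sox2, Hes5 and the second of 2 windows of Dcx. In Hes5 the SOX match, 118 bases before the start, does not overlap the RBPJ matches. A match of letters is no evidence of binding. Windows covered 7 of the 8 genes, Igfbpl1 being without one. GC content was 71.6% for Hes5, 67.6% for Neurod1, 58.0% for Sox11 and 50.8% for Sox4, with a median of 52.4% over all windows.

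Sox2, the transcription factor that keeps neural stem cells multipotent, lies on chromosome 3 from 31459834 to 31461890 (MGP_BALBcJ_G0027122, plus strand, BALB/cJ assembly, as are all gene coordinates from the table). Its level was 49.9, 49.1 and 51.7 CPM in I/R replicates 1, 2 and 3 and 46.8, 43.2 and 39.2 CPM in the sham replicates. The groups did not overlap, each I/R library being higher, and this was so of 57.4% of all genes tested in one direction or the other. The difference was small, with a log2 fold change of 0.22, a standard error (SE) of 0.09 and a 95% interval of 0.04 to 0.40, and it was not called (adjusted edgeR p of 0.0892). It was called with library size only, at 0.48 (adjusted edgeR p of 0.00564). An unnamed gene on the same strand overlaps Sox2 and had 4652 counts over the 6 libraries, and how the counting shared reads between overlapping genes is not given in the sources used here.

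Hes5, a repressor that Notch switches on in stem cells, is on chromosome 4 from 153038481 to 153039929 (MGP_BALBcJ_G0029184, plus strand). It had 138, 91 and 100 counts after I/R and 148, 258 and 162 in sham, or 3.03, 2.28 and 2.50 CPM against 3.79, 6.35 and 4.71 CPM. Each I/R library was below each sham library in CPM, and sham replicate 2 was the highest. The log2 fold change was -0.93 (SE 0.25, 95% interval -1.41 to -0.44, adjusted edgeR p of 0.0185). This call was the least stable of the 4. It did not pass with library size only (-0.66, adjusted edgeR p of 0.0673), without I/R replicate 2 (-0.86, 0.0559) or without sham replicate 2 (-0.71, 0.0724), and adjusted p ranged from 0.00190 to 0.0724 over 17 alternatives. Relative to Sox2 in the same library, which involves no scaling between libraries, Hes5 was also lower. The log2 ratio was -4.27 ± 0.209 after I/R and -3.15 ± 0.436 in sham, and the groups did not overlap, as for 55.2% of all genes relative to Sox2 (p of 0.1 by a two-sided exact permutation test, the smallest that 3 against 3 can give).

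The genes of the Notch pathway moved both ways. Of 24 tested, 7 rose, 4 fell and 13 did not pass, with a median log2 fold change of 0.10 (9 higher and 2 lower by library size alone), beside 41.8% of all genes called. Rbpj rose by 1.12 (SE 0.13), from 32.3 ± 2.59 to 70.2 ± 11.1 CPM, and the receptor Notch1 rose by 0.77 (SE 0.19; 0.49 without I/R replicate 1, and not called without sham replicate 2). The ligands Dll4, which is best known from sprouting vessels, and Jag1 rose by 1.42 (SE 0.34) and 0.97 (SE 0.21), and without I/R replicate 1 the rise of Dll4 was 0.96. Dll4 was not called without sham replicate 2. Among genes that Notch switches on, 2 besides Hes5 were lower: Hey1 at -0.71 (SE 0.16, adjusted edgeR p of 0.00911) and Nrarp, a feedback inhibitor, at -0.88 (SE 0.18, adjusted edgeR p of 0.00598). Hes1, the close relative of Hes5, was at 9.93 ± 2.89 CPM after I/R and 8.37 ± 0.279 CPM in sham and did not pass (0.25, SE 0.21, adjusted edgeR p of 0.392); without I/R replicate 1 it was called higher, at 0.44. Rfng, a glycosyltransferase that modifies Notch receptors, was lower at -0.42 (SE 0.08). With library size only, Hey1 and Nrarp were still called lower, at -0.46 and -0.62, and Rfng was not, at -0.16. The endothelium list rose in the same libraries, 8 of 10 genes, with a summed level of 422 to 662 CPM after I/R and 298 to 301 CPM in sham, and its part in the pathway's changes was not tested.

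**Figure D1:**
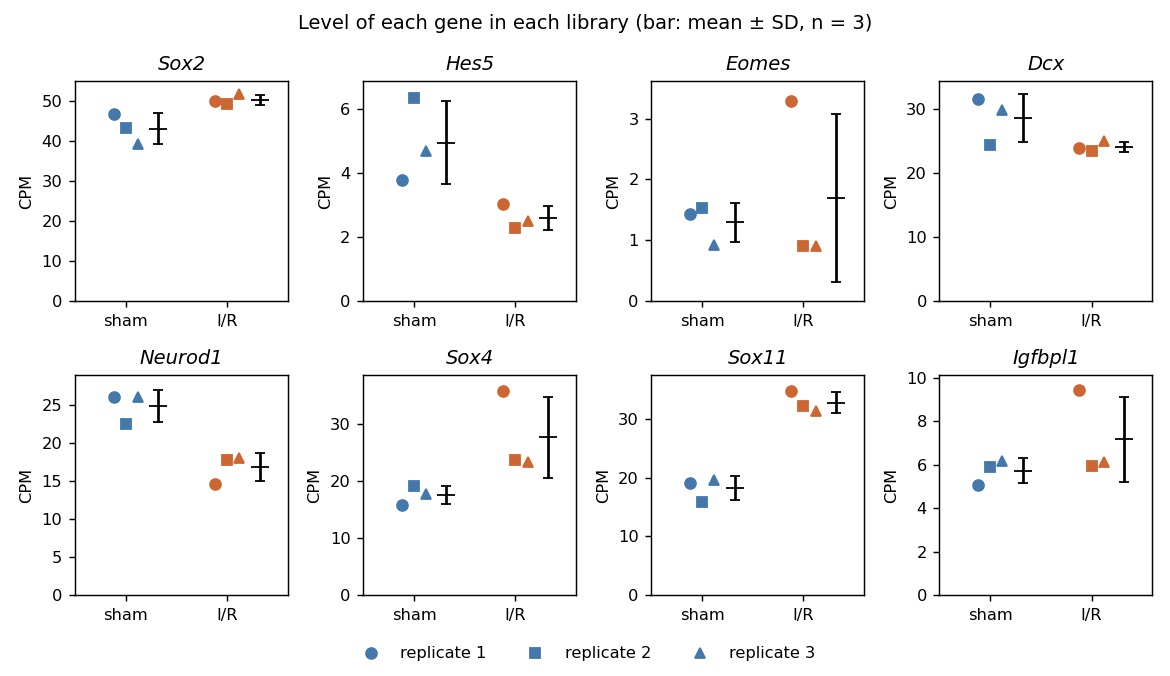
Level of each of the 8 genes in every library, in CPM on linear axes that begin at 0, for 3 I/R and 3 sham libraries; symbols are replicates 1 to 3 and bars are means ± SD. Sox11 and Sox4 are higher after I/R and Neurod1 and Hes5 lower, while 1 I/R library lies far above the other 2 in Eomes and Igfbpl1. In the genes that rose or fell, and in Sox2, the groups do not overlap, as for 57.4% of all genes tested.

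Eomes, the T-box factor of intermediate progenitors, is on chromosome 9 from 116546916 to 116554838 (MGP_BALBcJ_G0035381, plus strand) and was the lowest of the 8 genes. It had 150, 36 and 36 counts after I/R and 56, 62 and 32 in sham, or 3.30, 0.901 and 0.90 CPM against 1.43, 1.53 and 0.930 CPM. I/R replicate 1 alone was high. The other 2 I/R libraries were just below sham replicate 3 in CPM but above it in counts, at 36 and 36 against 32. By FPKM they were also above it, at 0.357 and 0.355 against 0.318, so this order rests on the scaling. The log2 fold change of 0.39 had an SE of 0.54 and an interval of -0.67 to 1.45 (adjusted edgeR p of 0.594). Without I/R replicate 1 it turned to -0.53 (adjusted edgeR p of 0.293). At this spread neither a rise nor a fall of the gene could be shown. Eomes is also a gene of natural killer and T cells. Of that list 9 genes were in the table, each had 9 counts or fewer in a library, 0 passed the filter on low counts, and their summed level was 0.0768 to 0.525 CPM, or 0.439 CPM in I/R replicate 1. The defining genes Ncr1 and Cd3e had 0 to 2 counts.

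The other intermediate progenitor genes did not move as a group. Of 10 tested, 3 rose, 3 fell and 4 did not pass, with a median of -0.40 and 60% called, beside 41.8% of all genes tested. Neurog2, the proneural factor that acts upstream of Eomes and Neurod1, had 17, 21 and 25 counts after I/R and 104, 107 and 91 in sham, all I/R libraries being far below sham. It fell by 2.38 on the log2 scale (SE 0.29, adjusted edgeR p of 0.000934) and was called in every alternative. Insm1, a zinc finger factor of dividing progenitors, was lower at -1.48 (SE 0.38; -1.13 without I/R replicate 1, and not called without sham replicate 2). Nhlh1, a bHLH factor of newly born neurons, was at the edge of the threshold, at -1.02 (SE 0.36, adjusted edgeR p of 0.0499), and lost its call in 11 of 17 alternatives. The 3 that rose were Gadd45g at 2.90 (SE 0.28), Btg2 at 1.49 (SE 0.22) and Mfng at 0.74 (SE 0.21). Gadd45g and Btg2 are also well known as stress and growth arrest genes. Mfng, another Notch glycosyltransferase, was not called without I/R replicate 2 or sham replicate 1 or 3.

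Neurod1, the bHLH factor of granule neuron commitment, is on chromosome 2 from 77033379 to 77037608 (MGP_BALBcJ_G0025851, minus strand). Its level was 14.7, 17.8 and 18.1 CPM after I/R and 26.1, 22.4 and 26.1 CPM in sham. The highest I/R library was below the lowest sham library, and the log2 fold change was -0.56 (SE 0.12, 95% interval -0.80 to -0.32, adjusted edgeR p of 0.00856). The fall passed without each library in turn but rested on the scaling: with library size only it was -0.31 and did not pass (adjusted edgeR p of 0.0594; range 0.000454 to 0.0776 over 17 alternatives). Relative to Dcx in the same library it was lower in all 3 I/R libraries, with a log2 ratio of -0.52 ± 0.159 after I/R and -0.19 ± 0.0780 in sham. Neurod1 overlaps Cerkl, on the same strand, which had 511 counts over the 6 libraries, and 5.71% of the 50-base stretches of Neurod1 transcripts were shared with it.

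Among bHLH and T-box relatives, 8 of 12 genes were tested, 2 fell and 0 rose, with a median of -0.56, and 0 also rose at an unadjusted p under 0.05 and by DESeq2. With 25% called, the list was below the 41.8% of all genes tested, of which 19.9% were called lower. Neurog2 was the first that fell, and Tbr1, a T-box factor of glutamatergic neurons that follows Eomes in cortical development, was the second, at -0.96 (SE 0.19), from 56.9 ± 4.81 to 29.2 ± 8.31 CPM. Both were called with library size only as well.

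Dcx is on chromosome X from 138977802 to 139054170 (MGP_BALBcJ_G0036125, minus strand). It had 1086, 937 and 999 counts after I/R and 1230, 989 and 1024 in sham, or 23.9, 23.4 and 25.0 CPM against 31.5, 24.3 and 29.8 CPM. The I/R libraries were close together and overlapped the lowest sham library. The log2 fold change was -0.24 (SE 0.12, 95% interval -0.47 to -0.02) and was not called (adjusted edgeR p of 0.130). Its sign turned with library size only, to 0.01. As the marker of the neuroblast, Dcx served as the denominator for ratios within a library, and each ratio is read against all genes treated in the same way.

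Sox4 and Sox11 are SoxC factors found in committed neuroblasts, and the cells that carried their rise here were not identified. Sox11, on chromosome 12 from 24695242 to 24704573 (MGP_BALBcJ_G0019583, minus strand), was at 34.8, 32.2 and 31.4 CPM after I/R and 19.2, 15.8 and 19.7 CPM in sham. The groups were well apart, and the rise was the largest of the 8 genes and the only change called in each of 17 alternatives. Its log2 fold change was 0.85 (SE 0.11, 95% interval 0.62 to 1.07, adjusted edgeR p of 0.00134), with 0.75 to 1.11 over the alternatives. Sox4, on chromosome 13 from 26179782 to 26184576 (MGP_BALBcJ_G0020359, minus strand), was at 35.7, 23.7 and 23.4 CPM after I/R and 15.8, 19.1 and 17.6 CPM in sham. I/R replicate 1 was the highest, but the other 2 I/R libraries also lay above sham. Its log2 fold change was 0.66 (SE 0.18, adjusted edgeR p of 0.0210). Without I/R replicate 1 the rise of Sox4 was smaller and still called, at 0.42. It was not called without sham replicate 1 (0.58, adjusted edgeR p of 0.0808), 2 (0.72, 0.0519) or 3 (0.65, 0.0673), and adjusted p ranged from 0.00456 to 0.0808 over 17 alternatives.

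The third SoxC gene went the other way. Sox12 fell from 45.2 ± 1.43 to 25.9 ± 5.40 CPM, or a log2 fold change of -0.80 (SE 0.15, adjusted edgeR p of 0.00480), and was at -0.56 with library size only, still called. Over the Sox family without Sox2, Sox4 and Sox11, 14 of 16 genes were tested, of which 3 rose, 3 fell and 8 did not pass, with a median of 0.09 (5 higher and 2 lower by library size alone), beside 41.8% of all genes called. Sox7 and Sox18, which are factors of endothelial cells, rose by 1.75 (SE 0.26) and 1.27 (SE 0.26), and Sox9, an astrocyte and stem cell factor, rose by 0.68 (SE 0.12). Besides Sox12, Sox8 was lower at -0.91 (SE 0.13), a factor of glial cells, and Sox21 at -0.69 (SE 0.19). Sox21, a partner and antagonist of Sox2, lost its call in 8 of 17 alternatives, among them library size only and the fits without I/R replicate 2, sham replicate 1 or sham replicate 2. Sox1, the nearest relative of Sox2 in stem cells, was at 15.2 ± 3.07 CPM after I/R and 19.97 ± 2.61 CPM in sham and did not pass (-0.40, SE 0.17, adjusted edgeR p of 0.0991); without I/R replicate 1 it was called lower, at -0.56.

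Igfbpl1, on chromosome 4 from 42571756 to 42589631 (MGP_BALBcJ_G0028226, minus strand), had 9.43, 5.95 and 6.10 CPM after I/R and 5.07, 5.91 and 6.16 CPM in sham. I/R replicate 1 was high, as with Eomes, while the other 2 I/R libraries lay within the sham range. The log2 fold change was 0.33 (SE 0.22, 95% interval -0.10 to 0.75, adjusted edgeR p of 0.264) and was 0.08 without I/R replicate 1. In CPM, I/R replicate 1 was the highest of the 6 libraries in Eomes, Sox4, Sox11 and Igfbpl1 and the lowest in Neurod1.

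**Figure D2:**
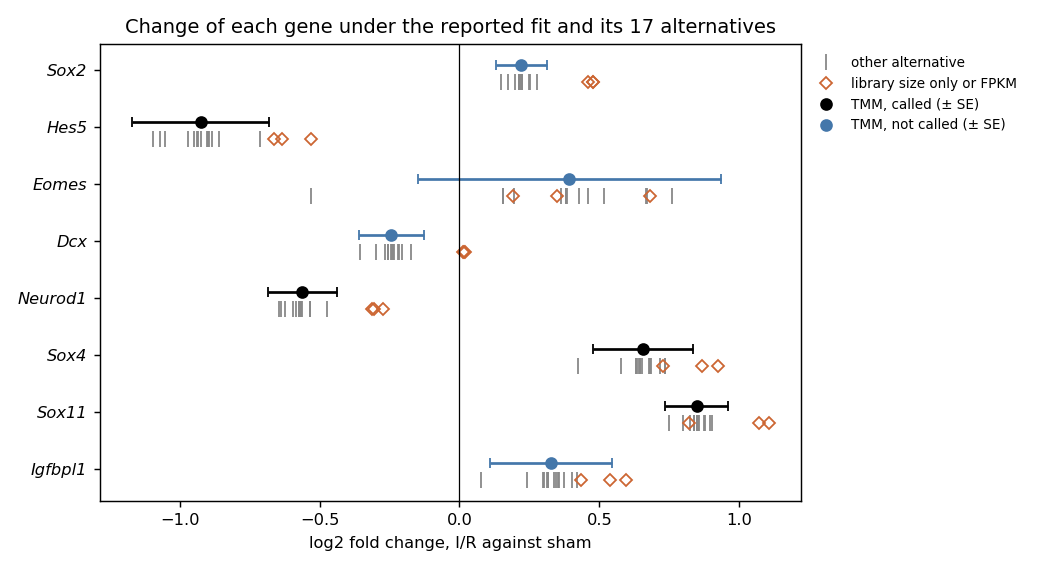
Log2 fold change of I/R against sham for the 8 genes; circles with bars are the reported value ± SE, black where called, ticks are alternative fits and diamonds those with library size only or FPKM. Sox11 stays between 0.75 and 1.11 over 17 alternatives, Eomes crosses 0, and Dcx lies between -0.35 and 0.02.

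Ratios within a library compare the levels of genes without a scaling factor between libraries. In a mixture of cell types they do not measure cells of a stage. Sox11 relative to Dcx differed most among those with Dcx, with log2 ratios of 0.54, 0.46 and 0.33 after I/R and -0.72, -0.62 and -0.60 in sham. Sox11 thus had more counts than Dcx in each I/R library and fewer in each sham library. The mean difference was 1.09 (0.44 ± 0.108 after I/R and -0.64 ± 0.0642 in sham). Relative to Dcx, Sox2 was higher by 0.46, Sox4 by 0.87 and Igfbpl1 by 0.53, and these groups did not overlap either. Hes5 relative to Dcx overlapped, with a difference of -0.67 (p of 0.2 by the exact permutation test), as did Eomes relative to Dcx at 0.37 (p of 0.8 by the same exact test). Among all genes tested, 48.9% did not overlap when taken relative to Dcx.

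Prox1, the homeobox factor that granule neurons keep for life, was chosen as a second denominator after its values were seen. It fell from 138 ± 13.4 to 80.9 ± 11.3 CPM, or a log2 fold change of -0.77 (SE 0.12, adjusted edgeR p of 0.00255), and was at -0.52 with library size only, still called. Dcx relative to Prox1 was higher in I/R, by 0.54 (-1.74 ± 0.178 against -2.28 ± 0.0527), and Sox11 relative to Prox1 by 1.63. For 71.4% of all genes the groups did not overlap when taken relative to Prox1. Of 10 ratios computed, 8 did not overlap, 6 above and 2 below sham. Each of these 8 had a p of 0.1 by the two-sided exact permutation test, the lowest possible, which is 0.125 after Benjamini-Hochberg adjustment over the 10.

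**Figure D3:**
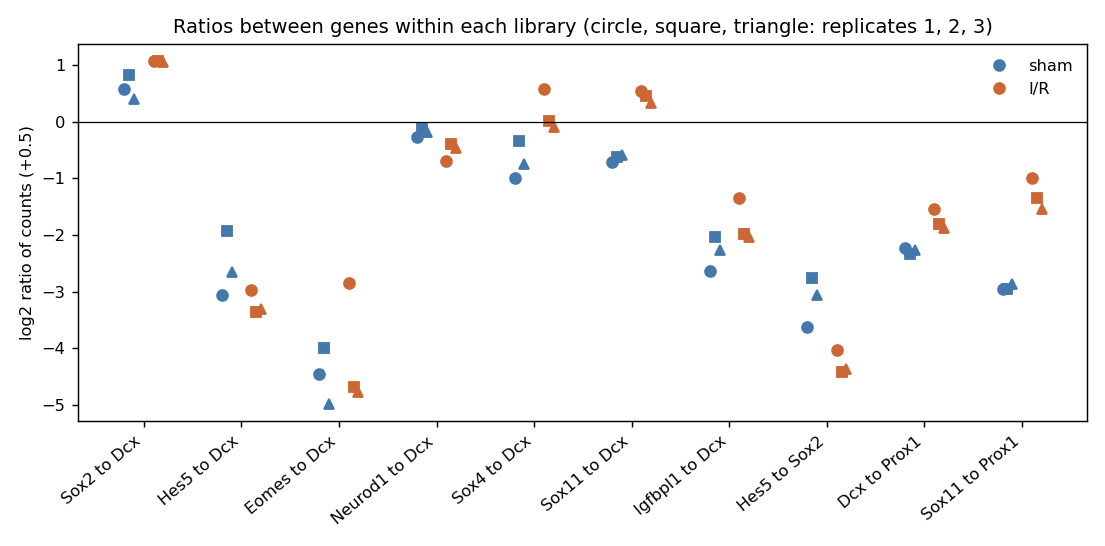
Log2 ratio of counts within a library for the 10 pairs of genes; each point is 1 library, I/R or sham. Sox11 to Dcx lies above 0 in the 3 I/R libraries and below 0 in the 3 sham libraries, while Hes5 to Dcx and Eomes to Dcx overlap between the groups.

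To compare levels between genes, CPM was divided by the length in kb that the table gives for the gene. In sham the order was Sox2 at 20.9, Neurod1 at 9.11, Hes5 at 3.89, Sox4 at 3.65, Dcx at 3.14, Sox11 at 2.19, Igfbpl1 at 1.995 and Eomes at 0.365 CPM per kb. Neighbours whose libraries overlapped were Hes5 and Sox4, Sox4 and Dcx, and Sox11 and Igfbpl1. In I/R it was Sox2 at 24.4, Neurod1 at 6.17, Sox4 at 5.75, Sox11 at 3.94, Dcx at 2.65, Igfbpl1 at 2.50, Hes5 at 2.04 and Eomes at 0.478 CPM per kb. Sox2 was first and Eomes last in both groups, and Hes5 went from the third to the seventh place. Neighbours that overlapped after I/R were Neurod1 and Sox4, Dcx and Igfbpl1, and Igfbpl1 and Hes5. The places of Dcx, Hes5 and Igfbpl1 rest on the transcript length taken, while Eomes was last on either length. The table's length for Dcx is 9082 bases, while the FPKM values the authors deposited imply 3907 bases. On those FPKM values Dcx, at 6.69 ± 0.922 in sham, stood above Hes5, at 5.57 ± 1.42, and Sox4, at 3.34 ± 0.292. Eomes had a mean FPKM of 0.441 in sham and 0.708 after I/R. For Hes5 the lengths are 1273 and 812 bases, and by FPKM it was the fourth in sham and the seventh after I/R.

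The radial glia-like stem cell list held 18 tested genes, of which 5 rose, 8 fell and 5 did not pass, with a median of -0.38. This is 72.2% called, beside 41.8% of all genes tested. The 3 largest rises were Nes at 3.71 (SE 0.40; 3.08 without I/R replicate 1), Vim at 3.51 (SE 0.28) and Gfap at 2.31 (SE 0.17), which code for intermediate filaments that reactive astrocytes also make. All 11 tested genes of the reactive astrocyte list rose, with a summed level of 3129 to 4928 CPM after I/R and 542 to 580 CPM in sham, and Vim and Gfap are in both lists. The falls were led by Prom1, a membrane protein of stem cells, at -1.13 (SE 0.13), and Id4, an inhibitor of bHLH factors that keeps stem cells quiescent, at -0.97 (SE 0.14). By library size alone this list had 5 higher and 2 lower, and without sham replicate 1 it had 5 and 3. Prom1 and Id4 were called lower with each scaling tried. The homeostatic astrocyte list, whose cells also carry Sox2, Hes5 and Sox9, had 9 of 12 genes lower and 1 higher (6 and 2 by library size alone, 6 and 0 without sham replicate 3), with a summed level of 4326 to 5015 CPM after I/R and 7445 to 8015 CPM in sham. Its part in the values of Hes5 and Sox2 was not tested.

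The cell division genes gave no uniform picture. Of 15 tested, 6 rose, 1 fell and 8 did not pass, with a median of 0.67 (8 higher and 0 lower by library size alone). This is 46.7% called, beside 41.8% of all genes tested. Mki67, the usual proliferation marker, had 125, 139 and 128 counts after I/R and 127, 106 and 98 in sham and did not pass (0.11, SE 0.21, adjusted edgeR p of 0.688). Cdk6 rose by 2.02 (SE 0.43; 1.47 without I/R replicate 1) and Mcm3, a replication helicase subunit, by 1.55 (SE 0.22). Ccnb1, the mitotic cyclin, had 12 to 22 counts after I/R and 3 or 4 in sham, and its rise (SE 0.55 on the log2 scale, adjusted edgeR p of 0.0229) lost its call in 7 of 17 alternatives. With so few counts in sham, Ccnb1 passed the filter on low counts only through the I/R libraries. Ccnd2, the D cyclin of adult hippocampal progenitors, was lower at -0.49 (SE 0.08), and was not called with library size only, at -0.23.

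The neuroblast and immature neuron list had 23 tested genes, of which 2 rose, 10 fell and 11 did not pass, with a median of -0.48. This is 52.2% called, beside 41.8% of all genes tested. Cd24a, a surface glycoprotein of neuroblasts, rose by 1.19 (SE 0.19), and Dpysl3, a cytoskeletal regulator of growing axons, by 0.80 (SE 0.18; 0.54 without I/R replicate 1). Plk5 fell by 2.20 on the log2 scale (SE 0.41), Bcl11b, a zinc finger factor of granule neuron maturation, by 1.40 (SE 0.35), and Draxin, an axon guidance protein, by 1.13 (SE 0.23). Plk5 and Prox1 are also in the mature dentate granule cell list, and Neurod2 and Neurod6 also in the hippocampal neuron list. The falls of this list therefore cannot be assigned to young neurons alone. By library size alone, 3 genes of this list were higher and 8 lower. Sox11 and Sox4 thus moved against the balance of calls in this list, and Neurod1 with it.

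Of 14 genes of the mature dentate granule cell, 11 fell and 3 did not pass by edgeR, with a median of -0.91, and 0 rose by edgeR, at an unadjusted p under 0.05 or by DESeq2. This is 78.6% called, beside 41.8% of all genes tested. Lct fell by 3.15 on the log2 scale (SE 0.74; -2.62 to -4.07 with 1 library left out), Tdo2 by 2.53 (SE 0.50; -2.10 to -3.09) and Dsp by 2.50 (SE 0.36). Calb1, the calcium-binding protein calbindin, was lower at -0.96 (SE 0.25, adjusted edgeR p of 0.0179) and was not called without sham replicate 1, 2 or 3. The summed level of the list was 522, 820 and 770 CPM in I/R replicates 1, 2 and 3 and 1211 to 1305 CPM in sham. I/R replicate 1, highest for Sox4 and Sox11, was thus lowest for the granule cell. By library size alone 9 genes of the list fell and 0 rose, and without sham replicate 1 or 2 the falls numbered 7.

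**Figure D4:**
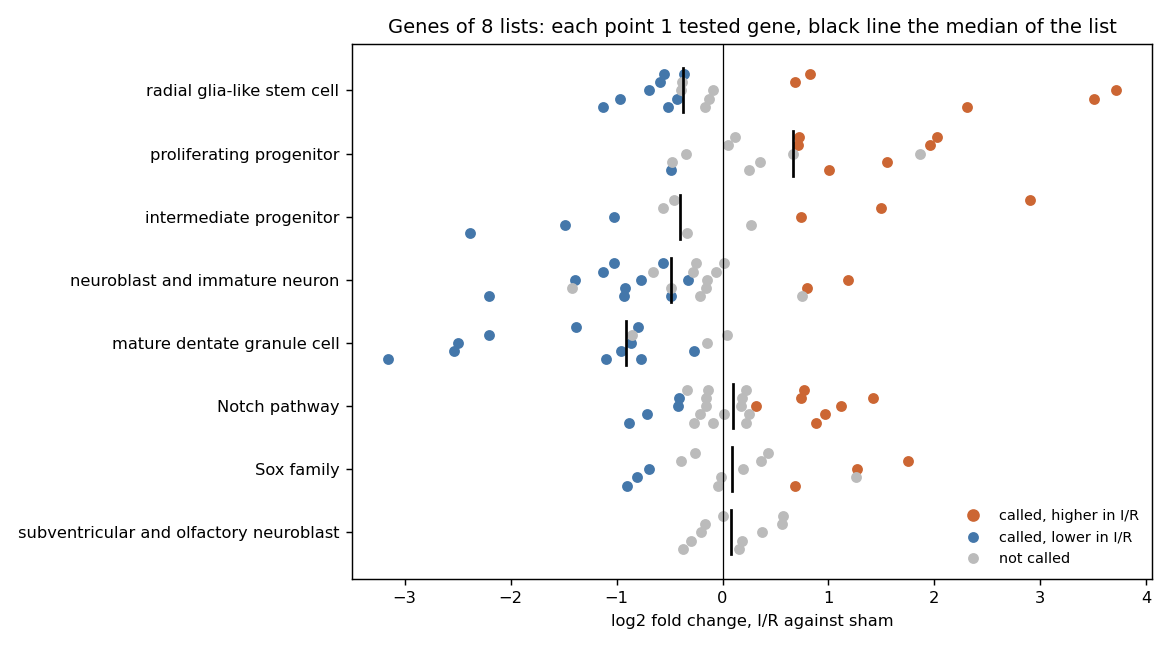
Log2 fold change of I/R against sham for each tested gene of 8 lists; each point is 1 gene, orange where called higher, blue where called lower and grey where not called, and the black line is the list median. The medians run from -0.91 for the mature granule cell to 0.67 for the cell division genes, and the subventricular and olfactory neuroblast list holds grey points alone.

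Of 24 factors of the neurogenic niche that were tested, 5 rose, 6 fell and 13 did not pass, with a median of -0.31. This is near the shares over all genes, of which 21.8% were called higher and 19.9% lower. By library size alone 5 were higher and 3 lower, and without sham replicate 2 the counts were 3 and 4. Lif, a cytokine that acts on stem cells and astrocytes, rose by 5.11 (SE 0.36), from 1.22 ± 0.280 to 42.6 ± 16.2 CPM. The growth factors Fgf2 and Bdnf rose by 1.87 (SE 0.16) and 1.39 (SE 0.12). Among secreted antagonists, Frzb and Dkk3, which belong to families that act on Wnt signals, were lower at -1.97 (SE 0.28) and -1.29 (SE 0.32), and Nog, a BMP antagonist, at -0.95 (SE 0.28). Nog lost its call in 6 of 17 alternatives, among them library size only.

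Markers of the neighbouring region and of other cells were read in the same way. The subventricular and olfactory neuroblast list, which would show cells of the other neurogenic zone, had 0 of 10 genes called by edgeR, 3 at an unadjusted p under 0.05, 2 by DESeq2, and 3, all higher, by library size alone. Its summed level was 113 to 124 CPM after I/R and 121 to 129 CPM in sham. The Cajal-Retzius list had 1 of 6 genes higher and 2 lower (1 and 1 by library size alone). Oligodendrocyte precursors, which carry several Sox genes, had 1 of 10 higher and 4 lower (3 and 3 by library size alone). Markers of blood cells were low: the neutrophil and monocyte list summed to 18.6 to 64.6 CPM after I/R and 3.89 to 5.36 CPM in sham, with I/R replicate 1 the highest. Of its 10 genes 6 passed the filter on low counts and were called higher, but most passed through the I/R libraries alone, since only 1 was tested when at least 10 counts were asked of every library. A gene that passes in this way had to differ.

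For each of the 8 genes, the named genes with the most similar pattern were found by the root mean square difference of log2 CPM, centred on the mean of the 6 libraries, among 14048 genes with at least 1 CPM on average. For Sox11 they were Tmem123 at 0.0521, Gm20594 at 0.0533 and Polk at 0.0551, and for Sox4 they were Uap1l1 at 0.0309, Ddah2 at 0.0461 and Snrpg at 0.0467. The nearest to Neurod1 were Rps6ka5, Gm10762 and Arfgef3, at 0.0249, 0.0450 and 0.0471, and those nearest to Dcx were Zfp608, C1ql1 and Zfp398, at 0.0475, 0.0616 and 0.0616. Sox2 had Nup37, Polr3g and Smurf2 at 0.0340 to 0.0405, and Igfbpl1 had Perm1, Calr and Pan2 at 0.0425 to 0.0550. Hes5 and Eomes were farther from every gene: the first 3 of Hes5 were Tmem44, Gstt1 and Pcdhb8, at 0.130 to 0.140, and those of Eomes were Ccdc78, Derl3 and Plekhg4, at 0.296 to 0.320. Between the 8 genes the closest pairs were Sox4 and Igfbpl1 at 0.176, Dcx and Neurod1 at 0.194 and Sox4 and Sox11 at 0.254, each farther apart than Sox4 and its first neighbour. With 6 libraries in 2 groups, such likeness is a description of these libraries.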

How the data were processed

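Hippocampal RNA was sequenced in 3 I/R and 3 sham libraries, grouped by their titles. Per the methods, the authors aligned reads with TopHat2 and counted reads per gene with HTSeq 0.6.1p2. The deposited counts are raw and whole. The deposited FPKM values were computed by the authors from these counts, gene length and depth, and for 4 of the 8 genes they rest on another length than the table lists. The submitters' processing notes name Bowtie 0.12.2 and mm8, whereas 40303 of 41386 genes have Ensembl BALB/cJ identifiers and 1083 are loci the authors assembled; coordinates are the table's. The strand setting is not given in the sources used here. The authors' own fold changes and p-values were not used.

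For the comparison of I/R with sham, edgeR 4.0.16 under R 4.3.3 was run on the counts (filterByExpr, TMM, robust quasi-likelihood F-test, no covariates) of the whole table, with Benjamini-Hochberg adjustment over 18569 genes. The SE is the size of the log2 fold change divided by the square root of F, and intervals are 1.96 SE to each side. The fit was tested on simulated data. Few genes were changed there, in both directions, so the test did not cover the scaling between libraries. The 3 counts set as the floor cover counting error only. Per the methods the 3 pools of a group were biological replicates, so p-values measure the spread between pools. Ratios within a library are log2 of counts plus 0.5, with two-sided exact permutation tests.

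Alternatives were DESeq2 1.42.0 size factors and Wald test, library size only, limma-voom (limma 3.58.1), limma on log2 of FPKM plus 1 or 0.1, no count filter, at least 10 counts in every library, the replicate number as a block, the choroid plexus level as a covariate, each library left out in turn, the library of each group with the least Ttr left out, and, for counts of genes, a fold change over 2 and an unadjusted p.

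The members and the 19 lists were chosen with earlier results of these data known. Of 244 list symbols, 239 were named in the table and 215 tested; Sfrp3 is an older symbol of Frzb, which the same list holds, and Tubb2b, Maml2, Vegfa and Klrb1c were not analysed here. Named genes were the 8 members, up to 3 largest rises and falls of each list, 12 further markers, and the 3 nearest patterns; of these, lists of other cell types are given as counts, and 1 gene is not reported here. Upstream sequences are RefSeq's, on GRCm38.p6. Another build than that of the counts was used for them, so no read was placed on them.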

Additional observations from a re-analysis of the deposited data

How the results depend on the processing

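Sox11 was called in each of 17 alternatives (0.75 to 1.11), and Igfbpl1 in 0 of 17 (0.08 to 0.59). Under library size only, log2 of FPKM plus 1 and log2 of FPKM plus 0.1, which hold no composition factor, Sox2 was called higher at 0.48, 0.46 and 0.48, Dcx turned to 0.0110, 0.0152 and 0.0182, and the calls of Neurod1 (-0.31, -0.27 and -0.31) and Hes5 (-0.66, -0.53 and -0.64) were lost. Library size only gave 8361 called genes, 75.8% of them higher against 52.3% with TMM, and 3 higher and 0 lower of the 8 genes. Without the library of each group with the least Ttr, Sox4 was not called (0.68); fewer samples enter that fit.

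Same-numbered libraries did not deviate together, with correlations of -0.14, 0.04 and -0.24, so the numbers were not taken to pair samples. With the replicate number as a block, 6332 genes were called, and 3 of the 8 genes, Hes5 being lost (-0.90, adjusted edgeR p of 0.0516); the choroid plexus list then had 0.

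Leaving out 1 library gave 0.15 to 0.28 for Sox2, -1.09 to -0.71 for Hes5, -0.53 to 0.67 for Eomes (negative without I/R replicate 1), -0.35 to -0.17 for Dcx, -0.64 to -0.47 for Neurod1, 0.42 to 0.74 for Sox4, 0.75 to 0.90 for Sox11 and 0.08 to 0.42 for Igfbpl1. The ratio of Eomes to Dcx ran from -0.26 to 0.70, and the other 9 ratios kept their sign. Such fits left 2 to 4 of the 8 genes called and 5330 to 7976 of all genes. The called genes per list then numbered 8 to 15 for radial glia, 5 to 7 for proliferating and 4 to 6 for intermediate progenitors, 11 to 14 for neuroblasts, 8 to 13 for Notch, 5 to 7 for Sox, 2 to 3 for bHLH and T-box, 7 to 12 for niche factors, 7 to 11 for mature granule cells, 6 to 10 for homeostatic and 10 to 11 for reactive astrocytes, 4 to 5 for oligodendrocyte precursors, 7 to 10 for endothelium, 0 to 2 for choroid plexus, 0 to 1 for subventricular neuroblasts, 2 to 3 for Cajal-Retzius cells, 4 to 7 for neutrophils and monocytes, 5 to 9 for hippocampal neurons and 0 for NK and T cells.

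A fold change over 2, which is stricter by construction, left 2760 genes and 0 of the 8, and by list 4 for radial glia, 4 for proliferating progenitors, 5 for neuroblasts, 2 for Notch, 2 for Sox, 1 for bHLH and T-box, 5 for niche factors, 6 for granule cells, 0 for homeostatic astrocytes, 2 for oligodendrocyte precursors, 5 for endothelium, 1 for Cajal-Retzius cells and 4 for hippocampal neurons. Without the library of each group with the least Ttr, radial glia had 7 calls, intermediate progenitors 3, homeostatic astrocytes 5, oligodendrocyte precursors 3, choroid plexus 5, Cajal-Retzius cells 1 and hippocampal neurons 5. Radial glia had 7 when scaled by library size only, 8 on FPKM plus 1 and 7 on FPKM plus 0.1; FPKM plus 0.1 gave granule cells 7, homeostatic astrocytes 6 and hippocampal neurons 5, and FPKM plus 1 gave Cajal-Retzius cells 1. Granule cells had 7 without a count filter, and neutrophils and monocytes 1 with at least 10 counts in every library. The choroid plexus list, with 1 call, had 0 with library size only, no count filter, limma-voom and FPKM plus 1 or 0.1, and 2 with its covariate. The subventricular list, with 0, had 1 with the size factors of DESeq2, 2 by its Wald test, and 3 with library size only, FPKM plus 1, FPKM plus 0.1 or an unadjusted p. Of 49 other genes named, 45 were called, 28 of these in every alternative; the cause of the lost calls was not tested, and 0 of the called ones reversed. Ttr, which was not called, turned from -0.40 to 0.25 and 0.28 on FPKM, 0.45 with the block, 0.74 with the choroid plexus covariate, and ranged from -1.55 to 0.41 with 1 library left out (positive without I/R replicate 3 or sham replicate 3).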
